A study of Danio rerio with 57 samples.

Results

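Sorafenib is a tyrosine kinase inhibitor that binds the receptors of vascular endothelial growth factor and a set of other kinases. The transcripts of these other kinases were followed here in zebrafish embryos, with the vascular endothelial growth factor receptors left out. The kinases described are 9, namely pdgfra, pdgfrb, kita, kitb, ret, fgfr1a, csf1ra, flt3 and braf. They were matched by symbol, ignoring case, to the gene identifiers of the counts table, and all 9 were found, on 10 of the 32520 rows. kita matched the single row with the symbol KIT (ENSDARG00000043317). fgfr1a could not be told apart from a second copy of its gene, so both rows with the symbol FGFR1 (ENSDARG00000011027 and ENSDARG00000011190) are described. The other rows are pdgfra (ENSDARG00000070494), pdgfrb (ENSDARG00000100897), kitb (ENSDARG00000056133), ret (ENSDARG00000055305), csf1ra (ENSDARG00000102986), flt3 (ENSDARG00000058503) and braf (ENSDARG00000017661). All 10 rows passed the filter on low counts.

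Receptor tyrosine kinases sit in the cell membrane, pair up when an extracellular ligand binds, and phosphorylate themselves and adaptor proteins. The adaptors load the small GTPase RAS with GTP, RAS recruits the RAF kinases, and RAF starts the phosphorylation chain through MEK to ERK. The PDGF receptors, KIT, the CSF1 receptor and FLT3 form 1 structural class. In zebrafish, kita acts in melanophores, csf1ra in xanthophores and macrophages, pdgfra in cranial neural crest and other mesenchyme, and pdgfrb in the mural cells around vessels. RET, with a GFRA co-receptor, receives the GDNF family in enteric and autonomic neurons. FLT3 acts in blood progenitors and FGFR1 in many embryonic tissues. In the RefSeq annotation of assembly GRCz12tu, kita lies next to pdgfra and csf1ra next to pdgfrb.

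RNA was sequenced from whole wild-type embryos of the strain OBI/WIK, pooled 20 to a replicate and kept at 26 °C. In the early scenario embryos were exposed from shortly after fertilization (the sample labels give 0 hpf and the treatment protocol 2 hpf, hours post fertilization) and sampled at 96 hpf, with 4 libraries of sorafenib 2.4 µM, 4 of rotenone 25 nM and 3 of the solvent DMSO. In the late scenario exposure began at 24 hpf, and samples were taken at 36, 48 and 96 hpf with sorafenib 1.3 and 2.4 µM, rotenone 25 and 50 nM, and DMSO, with 3 libraries in each group except the DMSO group at 48 hpf, which has 2. Rotenone, an inhibitor of complex I of the mitochondrial respiratory chain, was the other substance. The study included it as a potential vascular disruptor. Whole-embryo RNA cannot tell fewer cells of a type apart from less RNA per cell.

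The 55 libraries kept held 20609990 to 86897183 counted reads each (median 42602706). Each replicate, a pool of embryos, is named by its tube number. Scaling factors by the trimmed mean of M values (TMM) were 0.6761 in T16 (late, sorafenib 2.4 µM, 36 hpf), 0.6574 in T37 (late, rotenone 50 nM, 36 hpf) and 0.7983 in T49 (late, rotenone 25 nM, 48 hpf), against 0.8958 to 1.149 in the other 52 libraries. These 3 libraries also stood apart in the kinases. T16 had the lowest level of all libraries in 6 of the 10 rows (in flt3 level at 0 reads with T63, late, rotenone 50 nM, 48 hpf), T37 the lowest in 2 and the highest in 1, and T49 the lowest in 1. In braf, T16 read 6.52 CPM (counts-per-million, on library sizes scaled by TMM) beside 20.7 and 20.3 CPM in the other libraries of its group, and T49 read 10.7 CPM beside 24.2 and 25.9 CPM. In the FGFR1 row ENSDARG00000011190, T16 read 5.98 CPM beside 29.8 and 30.2 CPM. Several results that touch these libraries are given with and without them, and the rest in the fit of all libraries only. None of the 9 marker lists used for cell types had a marker at 0 in any group, though in whole embryos other tissues can also express these markers.

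**Figure D1:**
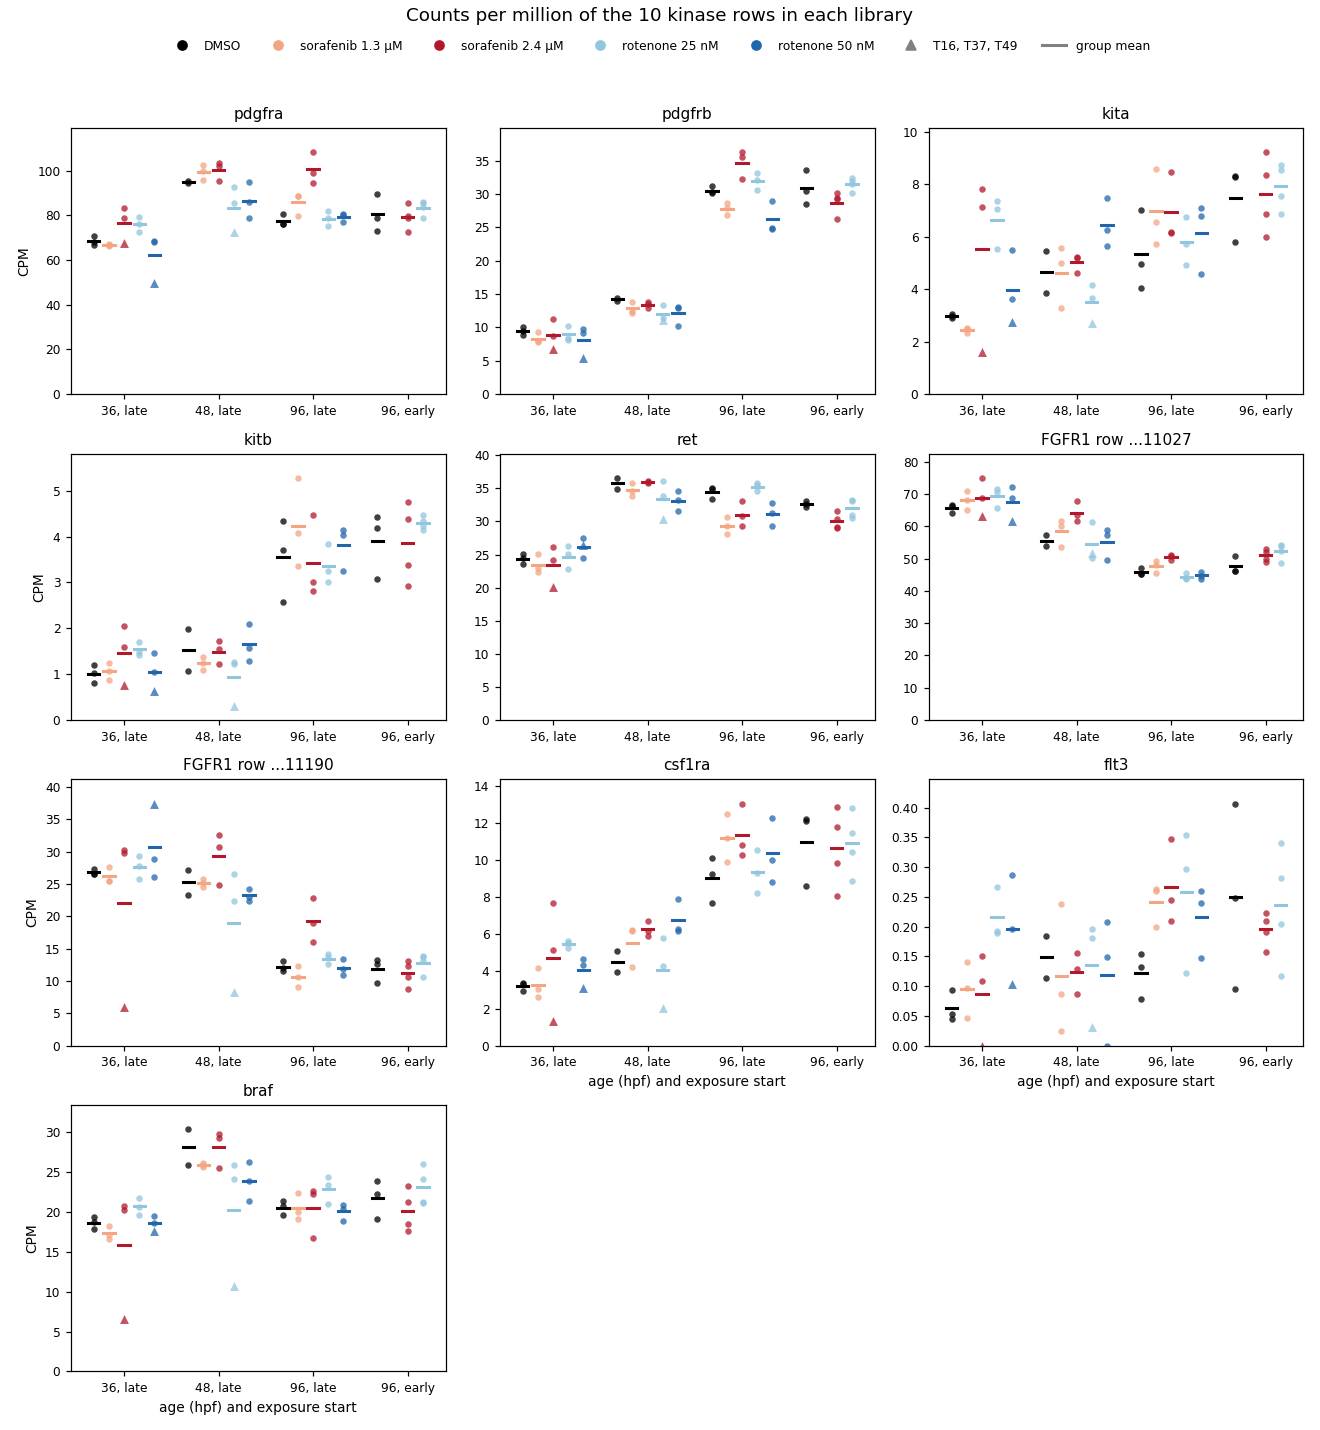
Level of each of the 10 kinase rows in CPM (counts-per-million) in each library, by age in hpf and exposure start. Points are libraries, short lines are group means and triangles mark T16, T37 and T49. In pdgfra the 3 libraries of late sorafenib 2.4 µM at 96 hpf (94.5 to 108.2 CPM) lie above the 3 DMSO libraries (76.1 to 80.4 CPM).

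Over the 18 groups the mean level of pdgfra ran from 62.2 CPM (late rotenone 50 nM, 36 hpf) to 101 CPM (late sorafenib 2.4 µM, 96 hpf), that of ret from 23.4 to 36.0 CPM and that of FGFR1 ENSDARG00000011027 from 44.4 to 69.3 CPM. These 3 rows kept within a narrow band. pdgfrb ran from 8.10 to 34.7 CPM, csf1ra from 3.20 to 11.4 CPM, kita from 2.45 to 7.92 CPM and kitb from 0.932 to 4.29 CPM, each lowest in a group of 36 or 48 hpf and highest in one of 96 hpf. FGFR1 ENSDARG00000011190 ran the other way, from 10.7 CPM in a 96 hpf group to 30.8 CPM in a 36 hpf group. braf ran from 15.8 CPM in the group that holds T16 to 28.2 CPM at 48 hpf. Levels were not compared between genes, since no gene lengths of the build used were at hand.

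The first question was whether either substance moved the transcripts of the kinases that sorafenib inhibits. Over 14 comparisons of treated against DMSO embryos, 1 of 140 tests passed an adjusted p of 0.05 (edgeR quasi-likelihood test, Benjamini-Hochberg adjustment over all 24246 genes tested). That test was pdgfra, which rose with sorafenib 2.4 µM at 96 hpf in the late scenario. 11 of the 140 tests had an unadjusted p under 0.05, and DESeq2 called 3, limma voom 1, fits of only the groups compared 6, and the fit without T16, T37 and T49 called 8. Sorafenib had 1 call in 70 tests by edgeR, with 7 unadjusted p under 0.05. It had 2 calls by DESeq2, 1 by limma voom, 4 with only the groups compared and 6 without the 3 libraries. Rotenone had 0 calls in 70 tests by edgeR, with 4 unadjusted p under 0.05. It had 1 call by DESeq2, 0 by limma voom, 2 with only the groups compared and 2 without the 3 libraries.

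The share of all genes called sets the background for these counts. In the early scenario it was 0.0289% with sorafenib 2.4 µM and 0.00% with rotenone 25 nM, and none of the 20 tests of the kinases had an unadjusted p under 0.05. Late sorafenib 1.3 µM gave 0.0454% at 36 hpf, 0.181% at 48 hpf and 0.0206% at 96 hpf, and no kinase was called. Late sorafenib 2.4 µM gave 2.23% at 36 hpf, 0.404% at 48 hpf and 19.9% at 96 hpf, beside 0, 0 and 1 of 10 kinase rows. Late rotenone 25 nM gave 0.0866% at 36 hpf and 0.00% at both 48 and 96 hpf, and rotenone 50 nM gave 0.396%, 0.0866% and 0.00412% at the 3 ages, with no kinase called. At 96 hpf with sorafenib 2.4 µM, 1 of 10 kinase rows was thus called beside 19.9% of all genes. With 10 rows, no difference is read from these shares. Without T16, T37 and T49, 4 of 10 rows were called beside 33.5% of all genes. With only the groups compared, 4 of 10 rows were called beside 6013 of 22648 genes. In the other 13 comparisons at most 2.23% of all genes were called.

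**Figure D2:**
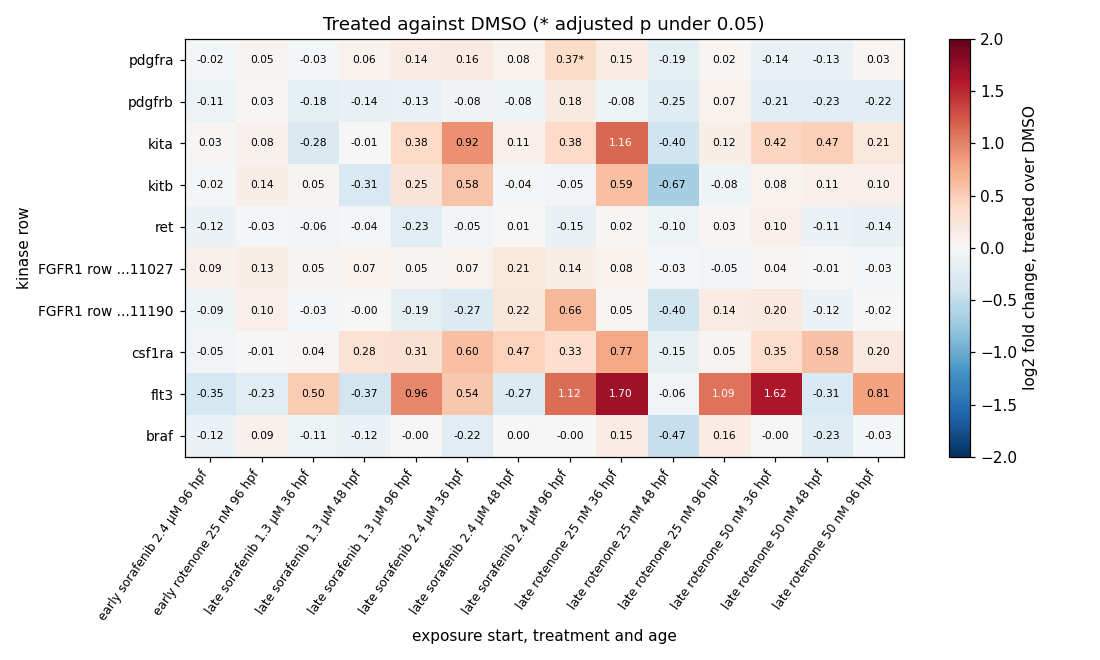
Log2 fold change of each kinase row (rows) in each of the 14 comparisons of treated over DMSO embryos (columns). Red is higher and blue lower in treated embryos, and the asterisk marks the 1 call, pdgfra at 0.37 with late sorafenib 2.4 µM at 96 hpf. flt3 has the widest colours, on levels of at most 0.407 CPM per library.

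pdgfra, the receptor of PDGF-A and PDGF-C ligands in mesenchyme, read 94.5, 98.9 and 108.2 CPM with late sorafenib 2.4 µM at 96 hpf, against 76.1, 80.4 and 76.3 CPM in late DMSO. The lowest treated library stood above the highest DMSO library. The means were 100.5 ± 7.03 CPM with sorafenib and 77.6 ± 2.39 CPM with DMSO (SD, n = 3 each), a log2 fold change of 0.37 (SE 0.09, adjusted p = 0.00229). The call held under all 8 alternative settings (log2 0.37 to 0.45, adjusted p 7.03e-07 to 0.00372) and without each of the 6 libraries in turn (log2 0.32 to 0.42, adjusted p 0.00191 to 0.0303). At the same age sorafenib 1.3 µM gave 88.7, 88.6 and 79.8 CPM (log2 0.14, not called). At 48 hpf, sorafenib 2.4 µM gave 103.2, 101.9 and 95.3 CPM, against 94.4 and 95.4 CPM in DMSO, and at 36 hpf 67.7 (T16), 79.0 and 83.2 CPM, against 68.1, 70.7 and 66.6 CPM in DMSO. Neither of these was called. With rotenone pdgfra stayed uncalled, at 75.1 to 81.8 CPM (25 nM) and 77.2 to 80.6 CPM (50 nM) at 96 hpf.

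The other rows at 96 hpf with late sorafenib 2.4 µM were mostly higher without passing the test. With pdgfra counted in, 7 of the 10 rows had a positive log2 fold change and the median of the 10 was 0.26, beside -0.07 over all genes. 6 rows, pdgfra among them, had all treated libraries above all DMSO libraries and 1 had all below. Beside these 7 of 10 rows, 43.8% of all genes did not overlap either way. pdgfrb, which binds PDGF-B and PDGF-D in mural cells, read 35.5, 32.2 and 36.3 CPM with sorafenib, against 31.1, 30.1 and 30.3 CPM in DMSO (log2 0.18, SE 0.13, adjusted p = 0.347). All 3 treated libraries were the higher ones, by a small margin. With sorafenib 1.3 µM at this age pdgfrb lay wholly below DMSO, at 26.86 to 28.67 CPM. It did so too with rotenone 50 nM (24.74 to 28.99 CPM). At 48 hpf it lay wholly below the 2 DMSO libraries, which these comparisons share, with both doses of each substance. Of all genes, 17% with sorafenib 1.3 µM and 19.9% with rotenone 50 nM did not overlap at 96 hpf. At 48 hpf the shares were 24.2% and 25.7% with sorafenib 1.3 and 2.4 µM, and 28.1% and 25.2% with rotenone 25 and 50 nM. None of these pdgfrb differences was called, and 3 of its 14 log2 fold changes were positive. DESeq2 (log2 0.32, adjusted p = 0.0167) and limma voom (0.34, adjusted p = 0.013) called the sorafenib dose difference at 96 hpf. edgeR on all libraries did not, with 16.3% of all genes called. edgeR called it with only the groups compared (0.37, adjusted p = 0.0165) and without T16, T37 and T49 (0.37, adjusted p = 0.000604). The shares of all genes called in these other fits are not given here.

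Of the FGFR1 rows, ENSDARG00000011190 read 19.0, 16.1 and 22.8 CPM with sorafenib 2.4 µM, against 13.1, 12.0 and 11.6 CPM in DMSO at 96 hpf (log2 0.66, SE 0.28, adjusted p = 0.0961). The groups did not overlap. ENSDARG00000011027 read 50.7, 49.4 and 51.1 CPM, against 45.1, 45.3 and 47.2 CPM (log2 0.14, SE 0.07, adjusted p = 0.205). The 2 groups again did not overlap, with a difference that was small beside that of the other copy.

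braf, a RAF kinase directly below RAS, read 22.6, 16.8 and 22.3 CPM with sorafenib 2.4 µM, against 19.6, 21.4 and 20.7 CPM in DMSO, with a 95% interval of the log2 fold change from -0.43 to 0.43. The groups overlapped. csf1ra read 13.0, 10.8 and 10.3 CPM with sorafenib 2.4 µM at 96 hpf, against 7.66, 9.26 and 10.1 CPM in DMSO (log2 0.33, SE 0.27, adjusted p = 0.434). The lowest treated library exceeded the highest DMSO library only narrowly. kita had 8.46, 6.15 and 6.19 CPM, against 4.04, 4.94 and 7.02 CPM (log2 0.38, adjusted p = 0.379), and kitb 4.47, 2.81 and 3.00 CPM, against 2.57, 3.72 and 4.35 CPM (log2 -0.05). Both overlapped with DMSO.

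With late sorafenib 2.4 µM at 96 hpf, ret was the 1 row that lay wholly below DMSO. It read 30.8, 29.3 and 33.0 CPM, against 35.0, 34.9 and 33.4 CPM (log2 -0.15, SE 0.07, adjusted p = 0.156). With sorafenib 1.3 µM it read 29.4, 28.1 and 30.6 CPM, also below every DMSO library (log2 -0.23, unadjusted p = 0.0031, adjusted p = 1). Few genes were called in that comparison. The low values were not limited to late sorafenib. ret also lay wholly below DMSO with rotenone 50 nM, at 29.33 to 32.85 CPM at 96 hpf and at 31.55 to 34.66 CPM, against 34.97 to 36.58 CPM, at 48 hpf. With early sorafenib 2.4 µM it read 29.03 to 31.56 CPM, against 32.18 to 33.13 CPM in early DMSO. None of these was called. Of all genes, 43.8% with late sorafenib 2.4 µM, 17% with 1.3 µM and 19.9% with rotenone 50 nM did not overlap at 96 hpf. The share was 25.2% with rotenone 50 nM at 48 hpf, where DMSO has 2 libraries, and 6.63% with early sorafenib 2.4 µM.

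The fits share 1 estimate of the spread over all libraries, and the 3 libraries that stood apart enter it although none belongs to the 96 hpf groups. Without T16, T37 and T49, 33.5% of 24225 genes were called at 96 hpf with late sorafenib 2.4 µM, and 4 of the 10 kinase rows were called, each higher with sorafenib. They were pdgfra (log2 0.45), pdgfrb (0.26, adjusted p = 0.012) and both FGFR1 rows (ENSDARG00000011027 at 0.22, adjusted p = 0.00679, and ENSDARG00000011190 at 0.74, adjusted p = 7.27e-06). The median of all genes moved from -0.07 to 0.0097 in that fit, and the log2 fold changes of these 4 rows moved up with it. Whether the spread or this shift brought the added calls was not tested. Fitting only the groups of the comparison also called these 4 rows.

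**Figure D3:**
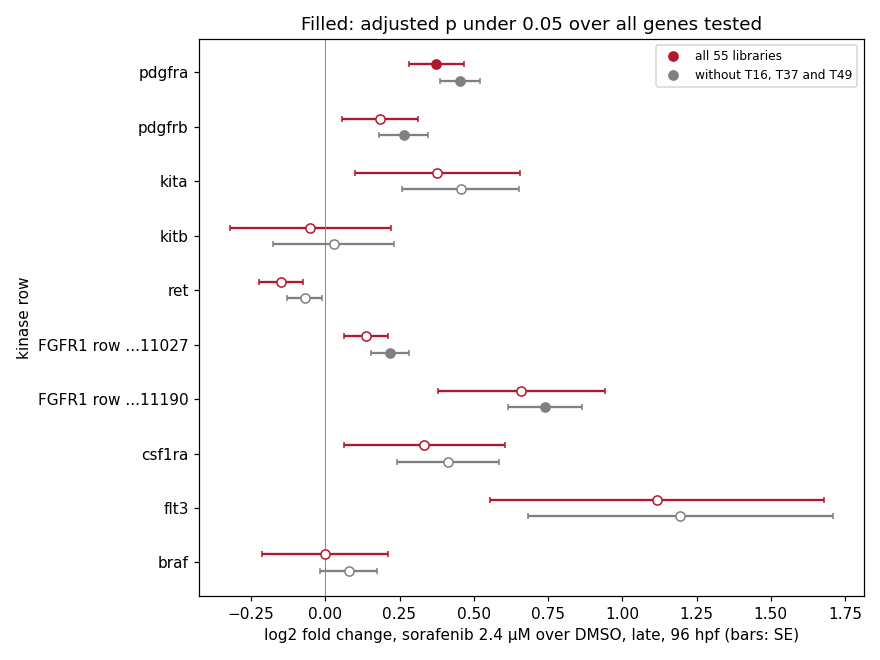
Log2 fold change of each kinase row with late sorafenib 2.4 µM over DMSO at 96 hpf, in the fit of all 55 libraries (red) and in the fit without T16, T37 and T49 (grey). Bars are standard errors and filled points have an adjusted p under 0.05. pdgfra is filled in both fits, at 0.37 and 0.45, and 4 rows are filled in the second.

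Marker lists moved in the same 96 hpf groups, and their part in the kinase results was not tested. Counts of markers called stand beside 19.9% of all genes called in this comparison. The summed level of 5 macrophage markers was 29.7, 41.8 and 39.0 CPM with sorafenib 2.4 µM, against 22.8, 19.5 and 19.5 CPM in DMSO, and 4 of the 5 rose (coro1a, irf8, marco and spi1b). Cranial mesenchyme markers summed to 130.2, 151.4 and 159.5 CPM, against 113.9, 115.2 and 112.6 CPM, and 3 of 5 rose. Both lists, of cells that use csf1ra and pdgfra, were higher in every treated library. Xanthophore markers summed to 161.1, 141.4 and 137.9 CPM, against 186.9, 194.0 and 186.6 CPM, and 3 of 6 fell (aox5, gch2 and slc2a15b). Melanophore markers summed to 340.4, 322.3 and 342.5 CPM, against 424.8, 401.5 and 390.3 CPM, with 0 of 7 called. The mural cell list had 2 of 7 higher and 1 lower, the autonomic and enteric neuron list 2 of 6 higher (hand2 and phox2a), the blood progenitor list 2 of 6 higher and 2 lower, and in the endothelial list kdrl fell, 1 of 5. In the oligodendrocyte list, whose cells also use pdgfra, sox10 rose, 1 of 3. Endothelial sums were lower in every treated library (101.5 to 115.5 CPM, against 129.5 to 135.4 CPM). Sums of the autonomic and enteric neuron list (84.8 to 92.7 CPM, against 71.9 to 77.1 CPM) and of the oligodendrocyte list (54.1 to 63.8 CPM, against 48.5 to 50.7 CPM) were higher in every one, while the mural cell sums (350.2 to 411.6 CPM, against 392.9 to 409.4 CPM) and blood progenitor sums (54.2 to 57.4 CPM, against 56.3 to 60.6 CPM) overlapped.

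At 36 hpf, kita and csf1ra were the rows furthest from DMSO among those above 1 CPM, both with sorafenib 2.4 µM and with rotenone 25 nM. kita, the melanophore receptor of Kit ligand, read 7.34, 7.07 and 5.55 CPM with rotenone 25 nM, against 2.90, 3.05 and 2.99 CPM in DMSO (log2 1.16, SE 0.29, adjusted p = 0.0965). All 3 treated libraries stood well above all 3 DMSO libraries. With sorafenib 2.4 µM kita read 7.14 and 7.83 CPM in T18 and T20 and 1.62 CPM in T16, so the group lay on both sides of DMSO (log2 0.92, SE 0.30, adjusted p = 0.0804). csf1ra showed the same layout. It read 5.62, 5.51 and 5.26 CPM with rotenone 25 nM, against 2.92, 3.35 and 3.33 CPM in DMSO (log2 0.77, SE 0.29, adjusted p = 0.351), and 7.68, 5.16 and, in T16, 1.35 CPM with sorafenib 2.4 µM (log2 0.60, SE 0.30, adjusted p = 0.261).

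Without T16 both rows passed the test with sorafenib 2.4 µM at 36 hpf, kita at log2 1.33 (adjusted p = 0.00111) and csf1ra at log2 1.01 (adjusted p = 0.0129). Without T16, T37 and T49 together, 11.2% of all genes were called with sorafenib 2.4 µM at 36 hpf and 3.39% with rotenone 25 nM. In that fit kita rose by log2 1.27 (adjusted p = 0.000404) and csf1ra by 0.95 (adjusted p = 0.0028) with sorafenib, and kita by 1.11 (adjusted p = 0.00286) and csf1ra by 0.73 (adjusted p = 0.0246) with rotenone. DESeq2 on all 55 libraries called kita in both comparisons (adjusted p = 0.039 with sorafenib and 0.0215 with rotenone) and csf1ra in neither. Fits of only the groups compared called both rows with rotenone 25 nM (adjusted p = 0.000113 for kita and 0.00109 for csf1ra) and neither with sorafenib 2.4 µM (adjusted p = 0.91 for both). limma voom called neither row in either comparison. The shares of all genes called by DESeq2 and by the fits of only the groups compared are not given here. The calls of those fits are therefore not set against all genes. The sorafenib and rotenone comparisons share the 3 DMSO libraries. Sorafenib minus rotenone at this age was -0.23 on the log2 scale for kita (95% interval -0.81 to 0.34) and -0.17 for csf1ra (-0.75 to 0.41).

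Other doses at 36 hpf lay nearer to DMSO. kita read 2.52, 2.33 and 2.50 CPM with sorafenib 1.3 µM, all under DMSO, and 2.73 (T37), 3.64 and 5.50 CPM with rotenone 50 nM. Of all genes, 15.6% did not overlap between sorafenib 1.3 µM and DMSO at this age. csf1ra read 2.63, 3.05 and 4.18 CPM with sorafenib 1.3 µM and 3.11 (T37), 4.68 and 4.35 CPM with rotenone 50 nM. Melanophore markers summed to 719.9 (T16), 664.9 and 536.7 CPM with sorafenib 2.4 µM and 665.3, 535.2 and 666.7 CPM with rotenone 25 nM, against 628.1, 561.1 and 551.3 CPM in DMSO, with 0 of 7 called in either comparison. Xanthophore markers summed to 522.1 (T16), 477.6 and 432.3 CPM with sorafenib 2.4 µM and 525.6, 445.1 and 523.0 CPM with rotenone 25 nM, against 425.5, 441.5 and 420.1 CPM in DMSO, with 0 of 6 called. The melanophore sums overlapped with DMSO in both comparisons and the xanthophore sums only with sorafenib. T16, lowest of all libraries in kita and csf1ra, was not low in either marker sum. The part of pigment cells in the kita and csf1ra values was not tested.

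**Figure D4:**
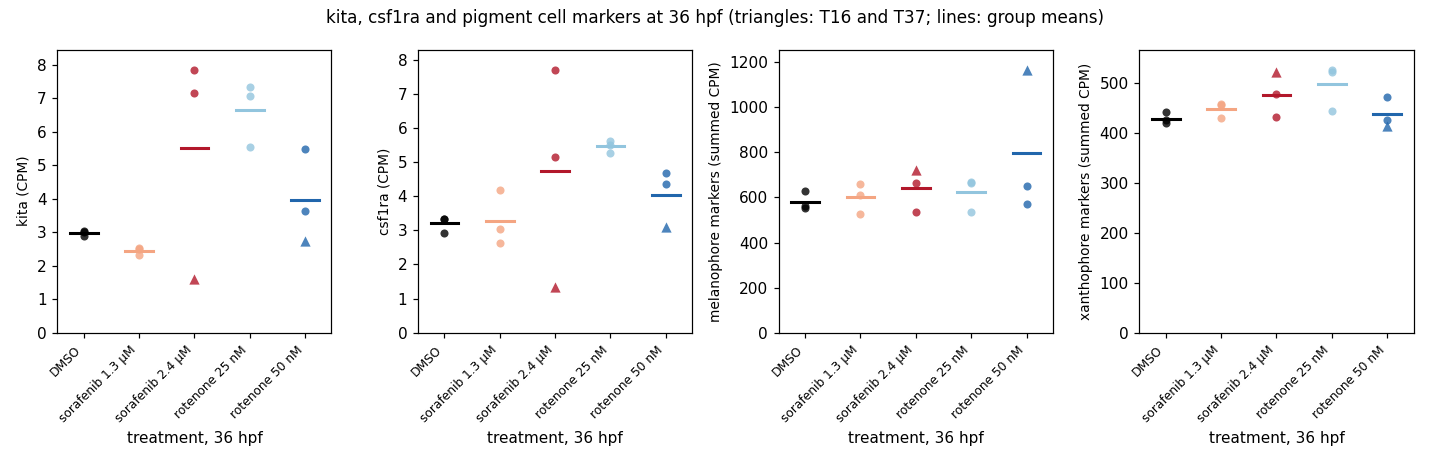
kita, csf1ra and the summed markers of melanophores and xanthophores at 36 hpf, in CPM, by treatment in the late scenario. Points are libraries, lines group means, and triangles T16 (sorafenib 2.4 µM) and T37 (rotenone 50 nM). kita is at 5.55 to 7.34 CPM with rotenone 25 nM and at 7.14 and 7.83 CPM in 2 of 3 libraries with sorafenib 2.4 µM, against 2.90 to 3.05 CPM in DMSO. The melanophore sums of these groups overlap, and the xanthophore sums reach 525.6 CPM with rotenone 25 nM, against at most 441.5 CPM in DMSO.

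With rotenone 25 nM at 36 hpf, 6 rows lay wholly above DMSO (pdgfra, kita, kitb, csf1ra, flt3 and braf) and 0 wholly below, 6 of 10, while 26% of all genes did not overlap either way. kitb, the second copy of kit, read 1.49, 1.70 and 1.43 CPM, against 1.02, 0.81 and 1.20 CPM in DMSO (log2 0.59, not called). Over the 14 comparisons kitb ranged from -0.67 with rotenone 25 nM at 48 hpf, where T49 read 0.311 CPM beside 1.26 and 1.22 CPM, to 0.59. For 7 of the 10 rows the lowest of the 14 log2 fold changes fell in that comparison, the 1 that holds T49.

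flt3 was near the detection limit, with 0 to 24 reads per library and at most 0.407 CPM. At 36 hpf it read 0.189, 0.267 and 0.193 CPM with rotenone 25 nM, against 0.093, 0.054 and 0.045 CPM in DMSO (log2 1.70, SE 0.67, adjusted p = 0.393). The groups did not overlap, on 8 to 11 reads per rotenone library and 2 to 4 per DMSO library. At 96 hpf it read 0.209, 0.245 and 0.347 CPM with sorafenib 2.4 µM, against 0.079, 0.132 and 0.154 CPM in late DMSO (log2 1.12, SE 0.56, adjusted p = 0.17). The early DMSO libraries at the same age reached 0.407 CPM.

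ret and the FGFR1 row ENSDARG00000011027 varied least. Over the 14 comparisons ret ranged from -0.23 to 0.10 on the log2 scale and ENSDARG00000011027 from -0.05 to 0.21. Their replicates also spread little, with median coefficients of variation within groups of 4.34% and 4.39%, close to 4.37% in pdgfra and below 19.1% in kita, 20.7% in kitb and 40.2% in flt3. braf ranged from -0.47, in the comparison that holds T49, to 0.16 and had no unadjusted p under 0.05 in any of the 14.

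The effect of the exposure start was tested as the early change minus the late change at 96 hpf, where 8.03% of all genes were called for sorafenib 2.4 µM and 0.00% for rotenone 25 nM. With sorafenib 1 of 10 rows was called, pdgfra, at -0.40 (SE 0.13, adjusted p = 0.0397). In the early scenario pdgfra read 85.5, 72.7, 79.6 and 78.9 CPM with sorafenib 2.4 µM, against 72.8, 78.9 and 89.5 CPM in early DMSO (log2 -0.02, 95% interval -0.20 to 0.15). The early groups overlapped, while the late groups did not. The call was lost without any 1 of 10 of the 13 libraries (adjusted p up to 0.181, without T13). With rotenone 0 of 10 rows were called by edgeR, 0 had an unadjusted p under 0.05, and DESeq2 and limma voom called 0. Between the early groups the macrophage and cranial mesenchyme sums overlapped, with macrophage sums of 17.6 to 19.6 CPM with sorafenib, against 15.5 to 18.6 CPM in early DMSO, and cranial mesenchyme sums of 97.3 to 123.3 CPM, against 98.9 to 107.6 CPM. The oligodendrocyte sums (45.0 to 53.6 CPM, against 45.5 to 48.2 CPM) and the autonomic and enteric neuron sums (70.2 to 83.1 CPM, against 72.1 to 73.8 CPM) overlapped too. Endothelial sums (112.3 to 122.7 CPM, against 135.4 to 142.5 CPM) and mural cell sums (302.8 to 386.9 CPM, against 391.1 to 403.4 CPM) lay wholly below early DMSO.

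The start of incubation alone was compared in DMSO. Early minus late DMSO at 96 hpf had 0.458% of all genes called and 0 of 10 kinase rows by edgeR, DESeq2 and limma voom, with 0 unadjusted p under 0.05. The interval for pdgfra was -0.13 to 0.24 and for ret -0.23 to 0.07.

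Higher minus lower dose called 2 of 60 kinase tests, with 12 unadjusted p under 0.05. For sorafenib (2.4 minus 1.3 µM) 0.705% of all genes were called at 36 hpf, 0.00412% at 48 hpf and 16.3% at 96 hpf. kita was higher at the higher dose at 36 hpf (log2 1.20, SE 0.30, adjusted p = 0.0411), and the call was lost without T18, T20, T31, T32 or T34 (adjusted p 0.0664 to 0.217) and when just the groups compared were fitted (0.983). csf1ra, uncalled with all libraries, passed without T16 (log2 0.97, adjusted p = 0.0141) and without T16, T37 and T49 (0.90, adjusted p = 0.00265). In the latter fit pdgfra passed too (0.21, adjusted p = 0.0407). The shares of all genes called in these 36 hpf refits are not given here. FGFR1 ENSDARG00000011190 was higher at 96 hpf, at 19.0, 16.1 and 22.8 CPM with 2.4 µM, against 9.12, 10.6 and 12.3 CPM with 1.3 µM (log2 0.85, SE 0.28, adjusted p = 0.0324). The doses did not overlap, while 35.8% of all genes did not overlap either way. The call was lost without T70 (adjusted p = 0.171), T83 (0.143) or T84 (0.0768).

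For rotenone (50 minus 25 nM) 5.61% of all genes were called at 36 hpf, 2.67% at 48 hpf and 0.0701% at 96 hpf. edgeR called 0 kinase rows at the 3 ages, with 2, 3 and 2 unadjusted p under 0.05, and DESeq2 called 1, 1 and 0. Nearest to the threshold at 36 hpf was pdgfra, at 49.7 (T37), 68.3 and 68.5 CPM with 50 nM, against 79.4, 75.97 and 72.6 CPM with 25 nM (log2 -0.29, SE 0.09, adjusted p = 0.053). All libraries of the higher dose lay below those of the lower dose, while 23.5% of all genes did not overlap either way. DESeq2 (adjusted p = 0.0323), limma voom (0.0363) and a filter at a mean count of 10 (0.0464) called it, and without T37 it stood at -0.15 (adjusted p = 0.792). At 48 hpf the DESeq2 call was kita, higher with 50 nM (log2 0.85, adjusted p = 0.0475). kita, kitb and csf1ra lay wholly above the 25 nM group, which holds T49, 3 of 10 rows, while 20.9% of all genes did not overlap. With 50 nM at this age kita also lay wholly above the 2 DMSO libraries (5.653 to 7.465 CPM, against 3.857 to 5.455 CPM). So did csf1ra (6.189 to 7.88 CPM, against 3.971 to 5.086 CPM), while pdgfrb and ret lay wholly below them. Against these 2 rows higher and 2 lower of 10, 25.2% of all genes did not overlap with DMSO either way. None of these kinase differences was called.

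Sorafenib 2.4 µM was also set directly against rotenone 25 nM, doses that the sample titles give the same effect level. The study's methods, however, list 2.4 µM as the high dose of sorafenib and 25 nM as the low dose of rotenone. A difference between these groups therefore need not be one of substance alone. 0.0124% of all genes were called in the early scenario, and 0.322%, 0.755% and 19.6% in the late scenario at 36, 48 and 96 hpf. 1 of 40 kinase tests was called, with 8 unadjusted p under 0.05. It was pdgfra at 96 hpf in the late scenario, at 94.5, 98.9 and 108.2 CPM with sorafenib, against 81.8, 75.1 and 78.7 CPM with rotenone (log2 0.36, SE 0.09, adjusted p = 0.00352). The groups did not overlap, while 43.5% of all genes did not overlap either way. The call held without each library in turn (adjusted p 0.00291 to 0.042) and under all 8 other settings.

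Whether a change with treatment differed between ages was tested as the change at 96 hpf minus that at 36 or 48 hpf. Sorafenib 2.4 µM had 12.5% (96 minus 36 hpf) and 4.31% (96 minus 48 hpf) of all genes called, and sorafenib 1.3 µM and rotenone 25 nM 0.00% in both. Rotenone 50 nM had 0.0371% and 0.0289%. None of the 80 kinase tests was called by edgeR or DESeq2, 4 had an unadjusted p under 0.05, and limma voom called 1, the fits of only the groups compared 3 and the fit without T16, T37 and T49 called 2. FGFR1 ENSDARG00000011190 with sorafenib 2.4 µM had the difference 0.93 against 36 hpf (SE 0.40, adjusted p = 0.117), with T16 in the earlier group. It passed without T16, T37 and T49 (0.64, adjusted p = 0.0112) and with limma voom (1.27, adjusted p = 0.0376). pdgfra had 0.30 against 48 hpf (SE 0.14, adjusted p = 0.266). So the rise of pdgfra at 96 hpf was not shown to differ from its changes of 0.16 at 36 hpf and 0.08 at 48 hpf in the fit of all libraries, though the difference from 48 hpf passed in the fits of only the groups compared (0.36, adjusted p = 0.0352) and without T16, T37 and T49 (0.36, adjusted p = 0.0129).

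As for all genes, more of these transcripts were called between ages than with either substance. In late DMSO embryos 33.8% of all genes were called between 48 and 36 hpf, 58.6% between 96 and 48 hpf and 72.5% between 96 and 36 hpf, beside 5, 6 and 7 of the 10 kinase rows, 18 of 30 tests in all. With 10 rows, no result particular to the kinases is read from these shares. pdgfrb averaged 9.48 CPM at 36 hpf, 14.2 CPM at 48 hpf and 30.5 CPM at 96 hpf, and rose in both steps (96 minus 36 hpf, log2 1.69, SE 0.13, adjusted p = 4.08e-15). kitb averaged 1.01, 1.53 and 3.55 CPM at the same ages (log2 1.80, SE 0.30, adjusted p = 1.04e-06), and csf1ra 3.20, 4.53 and 9.01 CPM (log2 1.49, SE 0.29, adjusted p = 1.32e-05). Both rose between 48 and 96 hpf, and neither was called between 36 and 48 hpf.

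ret rose between 36 and 48 hpf, with means of 24.4, 35.8 and 34.5 CPM at 36, 48 and 96 hpf (48 minus 36 hpf, log2 0.55, SE 0.08, adjusted p = 5.13e-07), and its last 2 ages did not differ beyond their error (log2 -0.05, 95% interval -0.22 to 0.11). pdgfra was highest at 48 hpf, with means of 68.5, 94.9 and 77.6 CPM. It rose between 36 and 48 hpf (log2 0.47, adjusted p = 0.000261) and fell between 48 and 96 hpf (log2 -0.29, adjusted p = 0.0133), but with cyclic loess scaling the second step was 0.016 (adjusted p = 0.922). That scaling moved the median of all genes between 96 and 36 hpf to -0.061, against 0.13 with TMM. braf had the same order of means, 18.6, 28.1 and 20.6 CPM, with 1 call between 36 and 48 hpf (log2 0.59, adjusted p = 0.0469) that was lost without any 1 of its 5 libraries (adjusted p 0.0715 to 0.279).

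Both FGFR1 rows fell between 36 and 96 hpf. ENSDARG00000011190 averaged 26.8, 25.3 and 12.2 CPM at 36, 48 and 96 hpf (96 minus 36 hpf, log2 -1.13, SE 0.28, adjusted p = 0.000464) and ENSDARG00000011027 65.7, 55.6 and 45.8 CPM (log2 -0.52, SE 0.07, adjusted p = 3.71e-08). The single steps of ENSDARG00000011027 were less firm. With cyclic loess scaling its step from 48 to 96 hpf was -0.011 (adjusted p = 0.928). Its call between 36 and 48 hpf was lost without T30 (log2 -0.23, adjusted p = 0.0521). It was also lost without T54 (-0.20) and without T55 (-0.28), fits that leave 1 DMSO library at 48 hpf. kita averaged 2.98, 4.66 and 5.34 CPM and rose between 36 and 96 hpf (log2 0.84, SE 0.29, adjusted p = 0.00942), though not with cyclic loess scaling (0.35, adjusted p = 0.255) nor without T78 (0.59, adjusted p = 0.0934). The DMSO group at 48 hpf rests on 2 libraries. Without T55, calls between 96 and 48 hpf were lost for kitb, csf1ra, pdgfra and FGFR1 ENSDARG00000011027. flt3 averaged 0.064, 0.149 and 0.122 CPM and was not called.

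**Figure D5:**
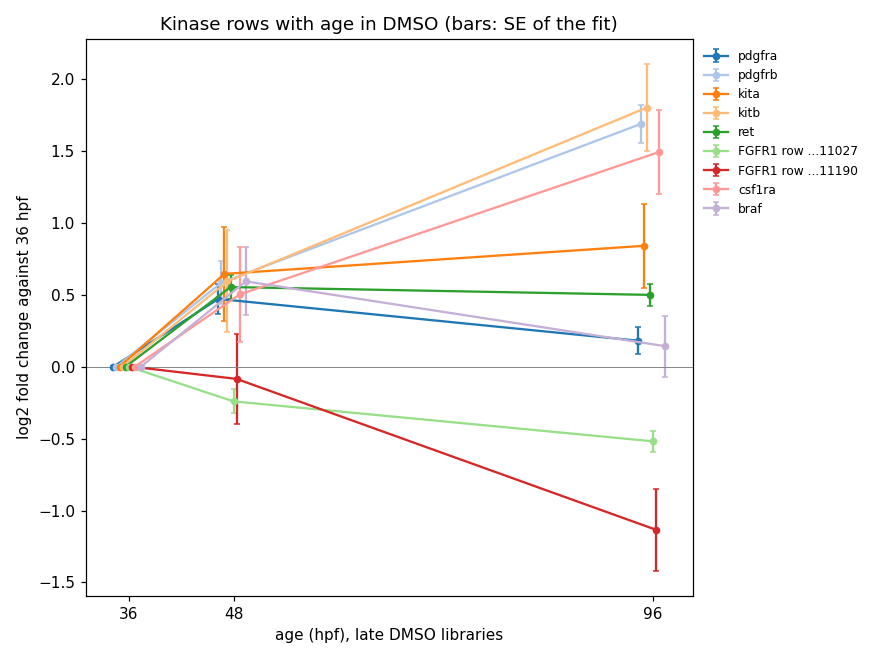
Log2 fold change against 36 hpf of 9 kinase rows (flt3 left out for its low counts) in late DMSO embryos at 36, 48 and 96 hpf, with the standard error of the fit as bars and points shifted sideways for clarity. kitb (1.80), pdgfrb (1.69) and csf1ra (1.49) stand highest at 96 hpf and FGFR1 ENSDARG00000011190 (-1.13) lowest.

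Other genes of the pathway were followed in 3 lists. None of their genes was called in the other 13 comparisons of treated against DMSO embryos, and with late sorafenib 2.4 µM at 96 hpf 18 were, where 19.9% of all genes were called (7.11% higher and 12.8% lower). Of 5 related receptor and RAF kinases 3 rose. fgfr4 had 85.03 CPM with sorafenib and 64.9 CPM with DMSO (log2 0.39, SE 0.10, adjusted p = 0.00272), fgfr3 100.8 and 75.6 CPM (0.42, adjusted p = 0.0118) and fgfr2 184.8 and 147.5 CPM (0.33, adjusted p = 0.0252). All 3 are receptors of FGF ligands, as FGFR1 is.

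Of 25 ligands and co-receptors tested, 5 rose and 5 fell, with a median log2 fold change of 0.07. il34, a ligand of the CSF1 receptor, rose to 3.46 CPM with sorafenib, against 2.32 CPM in DMSO (log2 0.58, adjusted p = 0.00651), and csf1a, another ligand of that receptor, to 4.56 CPM, against 3.39 CPM (0.43, adjusted p = 0.00813). gfra4a, a co-receptor of RET, fell to 4.93 CPM, against 8.02 CPM (-0.70, adjusted p = 0.0047). 1 of 2 rows (ENSDARG00000003399, symbol FGF8) that can stand for the ligand fgf8a also fell (-0.40, adjusted p = 0.00805).

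Of 23 adaptors and RAS, MEK and ERK genes, 1 rose and 4 fell, a share near that of all genes, with a median of -0.01. The riser was 1 of 2 rows (ENSDARG00000030933, symbol KSR1) that can stand for ksr1a, a scaffold of RAF, MEK and ERK, at 14.8 CPM with sorafenib and 9.20 CPM with DMSO (log2 0.69, adjusted p = 9.74e-05). ptpn11b, which encodes the phosphatase SHP2, fell to 6.06 CPM, against 13.0 CPM (-1.10, adjusted p = 0.000909), the adaptor grb2b to 44.1 CPM, against 54.2 CPM (-0.30, adjusted p = 0.00592), and map2k2a, a MEK kinase, to 46.6 CPM, against 53.9 CPM (-0.21, adjusted p = 0.00903). In late DMSO embryos between 36 and 96 hpf, 1 of the 5 related kinases rose and 4 fell, 14 of 25 ligands and co-receptors rose and 5 fell, and 9 of 23 adaptors and RAS, MEK and ERK genes rose and 8 fell. For the ligands and the adaptors these shares were near the 72.5% of all genes called between these ages (40.2% higher and 32.3% lower at 96 hpf).

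Genes with the most similar profile were found by Pearson correlation of mean log2 CPM over the 18 groups, which share libraries of the same ages, so that a common course with age is part of each value. For pdgfra they were NR3C1 (0.938) and col23a1a (0.935), for pdgfrb DOCK8 and kynu (both 0.994), and for csf1ra MYOM1 (0.984) and CACNA1H (0.983). For kita they were prkar1ab (0.973) and ITPKB (0.968), for kitb KANK4 (0.989) and SLC48A1 (0.987), and for ret CTNNA2 (0.982) and PCBP4 (0.978). For FGFR1 ENSDARG00000011027 they were CLIC4 (0.971) and HYAL2 (0.968), for ENSDARG00000011190 TFAP4 (0.981) and PLXNB1 (0.979), for braf DYM (0.949) and si:ch211-200p22.4 (0.934), and for flt3, the lowest values, themis2 (0.851) and CSF3R (0.837).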

How the data were processed

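RNA from whole embryos was sequenced with a stranded kit. Per the labels and the study's methods, the authors aligned reads with HISAT2 2.1.0 to GRCz11, kept reads of mapping quality over 30, which drops reads shared by near-identical copies, and assigned them to genes with featureCounts 2.0.3. The annotation release is not given in the sources used here. The authors deposited unnormalised counts per gene and library, of which 65.7 to 81.8% of the reads lay on genes. Of 57 libraries 55 were kept. T14 (13 counts) and T51, a late DMSO library at 48 hpf of 43644052 counts, were left out as in the study's methods. No columns lacked a sample.

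Counts were scaled by TMM, filtered with filterByExpr by group (24246 of 32520 genes tested) and fitted with edgeR 4.0.16 (glmQLFit and glmQLFTest) in R 4.3.3, with 1 coefficient for each of 18 groups, and p-values were adjusted over all genes tested (Benjamini-Hochberg, threshold 0.05). SE is the absolute log2 fold change over the square root of F, and intervals are 95%. CPM values use the TMM-scaled library sizes. 38 comparisons were made. Log2 fold changes are treated over DMSO, later over earlier age, higher over lower dose, sorafenib over rotenone, and early minus late. The p-values measure the spread between pools of embryos. The scripts were tested on simulated data.

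Symbols came from a table pairing gene identifiers with names (29201 identifiers). 8 of the 9 kinases matched exactly 1 row. A further kinase that sorafenib inhibits is not reported here. The kinases and gene lists were chosen with earlier results of these data known. Named genes are all 9 kinases, at most the 4 genes with the lowest p of each pathway list among those called against DMSO, and the 2 genes with the most similar profile for each row. Marker genes are named where called. Alternatives were RLE scaling, no filter, a mean count of at least 10, DESeq2 1.42.0, limma 3.58.1 voom with cyclic loess, only the groups compared, T51 added back, each replicate left out in turn, and T16, T37 and T49 left out together, the last known from an earlier analysis of these data.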

Additional observations from a re-analysis of the deposited data

Results flagged for a closer look

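pdgfra was singled out by a test of a difference between exposure starts. With sorafenib 2.4 µM at 96 hpf its change differed by -0.40 on the log2 scale between the early and the late scenario (edgeR, adjusted p = 0.0397), with a log2 fold change of -0.02 in the early scenario and 0.37 in the late scenario. Macrophage, cranial mesenchyme, oligodendrocyte, and autonomic and enteric neuron marker sums were higher in the late sorafenib libraries than in late DMSO. Melanophore and xanthophore sums were lower there. All of these sums overlapped between early sorafenib and early DMSO, and their part in the pdgfra difference was not tested. No library was far from the rest of its group by Dixon's criterion in the 20 sets of 4 libraries examined (10 rows in each of 2 early groups). Groups of fewer than 4 libraries cannot be examined in this way.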

How the results depend on the processing

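No paired analysis was possible because the groups share no replicate numbers. pdgfra with late sorafenib 2.4 µM, against DMSO and against rotenone 25 nM, kept its call at 96 hpf in every setting tried. Among values called in the fit of all libraries or in the other setting, 1 turned round. It was pdgfra between 96 and 48 hpf in DMSO, at 0.016 with limma voom and cyclic loess, against -0.29 with TMM. Values called in neither fit can also have changed sign and are not counted here. Of the log2 fold changes recomputed under settings that kept all replicates or left out T16, T37 and T49 together, 2871 kept their side of the threshold or their value, 58 newly passed, 8 no longer passed and 41 moved.

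The number of kinase rows called was 1 with late sorafenib 2.4 µM at 96 hpf, and became 4 with only the groups compared or without T16, T37 and T49. At 36 hpf it was 0, against 1 with DESeq2 and 2 without the 3 libraries, and with rotenone 25 nM 0, against 1 with DESeq2, 2 with only the groups compared and 2 without the 3 libraries. For the exposure start with sorafenib it was 1, against 0 with limma voom or no filter and 3 with only the groups compared or without the 3 libraries. For the sorafenib dose at 36 hpf it was 1, against 0 with limma voom or only the groups compared and 3 without the 3 libraries. At 96 hpf it was 1, against 3 with DESeq2 or without the 3 libraries and 2 with limma voom, only the groups compared, RLE or T51 added back. For the rotenone dose at 36 hpf it was 0, against 1 with DESeq2, limma voom or a mean count of at least 10. It was 0 at 48 hpf, against 1 with DESeq2, and 0 at 96 hpf, against 1 with only the groups compared. For sorafenib minus rotenone it was 0 at 48 hpf, against 1 with DESeq2, and 1 at 96 hpf, against 3 with DESeq2, only the groups compared or without the 3 libraries and 2 with limma voom or T51 added back. For the age of the sorafenib 2.4 µM effect it was 0, against 1 with limma voom or without the 3 libraries (96 minus 36 hpf) and 1 with only the groups compared or without the 3 libraries (96 minus 48 hpf), and with rotenone 25 nM (96 minus 36 hpf) 0, against 2 with only the groups compared. The cause was not tested. The share of all genes called also changed between fits. Without T16, T37 and T49 it went from 19.9% to 33.5% with late sorafenib 2.4 µM at 96 hpf. At 36 hpf it went from 2.23% to 11.2% with sorafenib 2.4 µM and from 0.0866% to 3.39% with rotenone 25 nM. These counts are therefore not read as results about the kinases.

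Without each replicate in turn the count ranged from 0 to 2 for sorafenib 2.4 µM at 36 hpf, 3 to 4 for DMSO 48 minus 36 hpf, 2 to 6 for DMSO 96 minus 48 hpf, 0 to 1 for the start with sorafenib, 0 to 2 and 0 to 1 for the sorafenib dose at 36 and 96 hpf, 0 to 2 and 0 to 1 for the rotenone dose at 36 and 48 hpf, 0 to 1 for sorafenib minus rotenone at 48 hpf, and 0 to 1 for the age of the sorafenib 2.4 µM effect (96 minus 36 hpf). Leaving out 1 DMSO library at 48 hpf leaves a single one, which is assumed to vary like the other groups. flt3, at 0 to 24 reads per library, is limited by counting error.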
